A study of Mus musculus with 8 samples.

Results

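The 10 genes described here are messengers of the bone marrow stroma, the non-blood cells that hold the blood-forming cells in place, and of the collagen-rich matrix around them. They were Cxcl12, Kitl, Lepr, Col1a1, Col1a2, Col3a1, Sparc, Fn1, Bglap and Cdh5, chosen by symbol and matched to 10 of the 41214 Ensembl genes counted in each library. Total bone marrow RNA was sequenced from 8 C57Bl6 mice in 4 groups of 2. Young KD mice (39 and 42 days old) and sick KD mice (187 and 78 days old) carried the Gfi1 knockdown allele, in which a human GFI1 cDNA in the mouse locus is expressed at a low level. Young KO mice (48 and 44 days old) and old KO mice (158 and 101 days old) lacked functional Gfi1, a transcriptional repressor that controls myeloid differentiation. The sick KD mice were labelled as having AML, while the study describes a fatal myeloproliferative disease in KD animals, and the old KO mice were labelled healthy. The study also reports myelofibrosis in sick KD animals, from reticulum staining of spleen, whereas the RNA here came from bone marrow. Both alleles were inherited through the germline, so stromal cells carried them too, and no wild-type library was analysed here.

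Mesenchymal stromal cells of the marrow surround its sinusoids. They make the chemokine CXCL12 and stem cell factor, the product of Kitl, which retain and maintain hematopoietic stem cells, and many of them carry the leptin receptor. Type I collagen is a triple helix of the Col1a1 and Col1a2 chains that is made by osteoblasts and fibroblasts, and in myelofibrosis stromal cells lay down collagen and reticulin fibres. Fibronectin, encoded by Fn1, is a matrix protein that monocytes and macrophages also make.

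The promoters of 4 members are given as examples: Cxcl12 and Kitl of the niche factors, Col1a2 of the fibrillar collagens and Bglap of the osteoblast genes. They do not stand for other genes of the same role. The sequences are from RefSeq on GRCm38.p6, which had an entry for 7 of the 10 members. They cover the 250 bases before the RefSeq start in the direction of transcription. For Kitl and Col1a2 this start lies inside the gene span given below, which is from GENCODE. Capitals mark the letters of a CCAAT box, of a TATA box or of a GC box, all searched on both strands. The TATA box was searched as TATAAA. For the GC box the letters were GGGCGG.
Cxcl12 promoter, chr6:117168285-117168534, plus strand: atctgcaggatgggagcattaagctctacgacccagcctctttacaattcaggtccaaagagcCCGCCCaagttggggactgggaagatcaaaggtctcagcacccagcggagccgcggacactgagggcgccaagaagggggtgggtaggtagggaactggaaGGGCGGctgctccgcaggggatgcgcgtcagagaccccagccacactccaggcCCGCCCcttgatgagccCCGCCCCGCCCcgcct
Kitl promoter, chr10:100015571-100015820, plus strand: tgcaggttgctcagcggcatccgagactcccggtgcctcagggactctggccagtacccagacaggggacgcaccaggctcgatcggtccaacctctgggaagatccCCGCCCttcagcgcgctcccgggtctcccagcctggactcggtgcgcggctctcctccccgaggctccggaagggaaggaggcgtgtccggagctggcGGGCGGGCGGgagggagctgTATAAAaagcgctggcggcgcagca
Col1a2 promoter, chr6:4505368-4505617, plus strand: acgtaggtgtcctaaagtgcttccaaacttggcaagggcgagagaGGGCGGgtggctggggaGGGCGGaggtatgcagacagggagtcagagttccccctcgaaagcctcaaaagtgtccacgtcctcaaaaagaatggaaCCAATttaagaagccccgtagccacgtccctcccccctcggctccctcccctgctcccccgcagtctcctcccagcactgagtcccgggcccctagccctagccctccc
Bglap promoter, chr3:88384467-88384716, minus strand: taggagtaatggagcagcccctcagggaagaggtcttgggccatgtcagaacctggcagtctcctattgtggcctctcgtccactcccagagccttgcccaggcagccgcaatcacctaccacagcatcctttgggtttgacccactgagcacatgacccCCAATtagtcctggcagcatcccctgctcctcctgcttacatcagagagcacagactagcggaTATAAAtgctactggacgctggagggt
The Cxcl12 window held 5 GC boxes, of which the pair nearest the start overlap, and no TATA or CCAAT box. In the Kitl window a TATA box began 25 bases before the start, behind 3 GC boxes that included an overlapping pair. Col1a2 had a CCAAT box 109 bases before the start and 2 GC boxes farther out. The window of Col3a1, another fibrillar collagen, is not printed and held only a TATA box, 117 bases before the start. Bglap had a CCAAT box at 90 bases and a TATA box at 27 bases. Among all 32851 RefSeq promoter windows of this length, 33.8% held a CCAAT box, 12.4% a TATA box and 32.7% a GC box. A match of letters is a description of the window and not a measured binding site.

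The libraries held 26642067 to 42679114 counts on genes, and values are given as raw counts and as CPM, which are counts scaled to a common library size with edgeR's TMM factors. Reads that the counting assigned to no gene made up 42.0% and 38.8% of the uniquely aligned reads in sick KD. In the other 6 libraries they made up 26.9% to 33.8%. The tally does not say where these reads lie, and the part of this difference in the results below was not tested. Counts on Gfi1 itself were 249 and 233 in young KD, 136 and 201 in sick KD, 616 and 473 in young KO and 377 and 1162 in old KO. A gene count does not say which exons were read, so it checks neither allele, and the group names below stand for the libraries carrying those labels. Nothing in the labels gives the sex or the batch of a mouse. The labels give each library its own mouse, and with 2 mice per group an exact permutation test of a single value cannot go below p = 0.333, so tests rest on the fit across all genes. CPM are relative to all counted RNA of a library. In RNA from whole marrow, fewer stromal cells, less RNA per stromal cell and more RNA from other cells therefore cannot be told apart.

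In sick KD marrow the niche factors, the fibrillar collagens and the osteoblast messenger were low, while Fn1 was high. Against young KD, 8 of the 10 members fell and 1 rose past an adjusted p of 0.05 in edgeR, where 20.9% of all 14656 tested genes were called, 11.4% lower and 9.45% higher. Taken against all 6 other libraries, both sick KD mice were lowest for Cxcl12, Kitl, Lepr, Col1a2, Col3a1, Sparc and Bglap and highest for Fn1, while Col1a1 and Cdh5 overlapped. The 2 groups did not overlap for 9 members on the lower side and 1 on the higher side, beside 32.4% and 34.3% of all tested genes, and all 10 had an unadjusted p under 0.05, beside 37.8%. The median log2 fold change of the 10 members was -2.14, beside 0.01 over all tested genes. Sick and young KD mice differ in disease and in age, which cannot be told apart here.

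**Figure D1:**
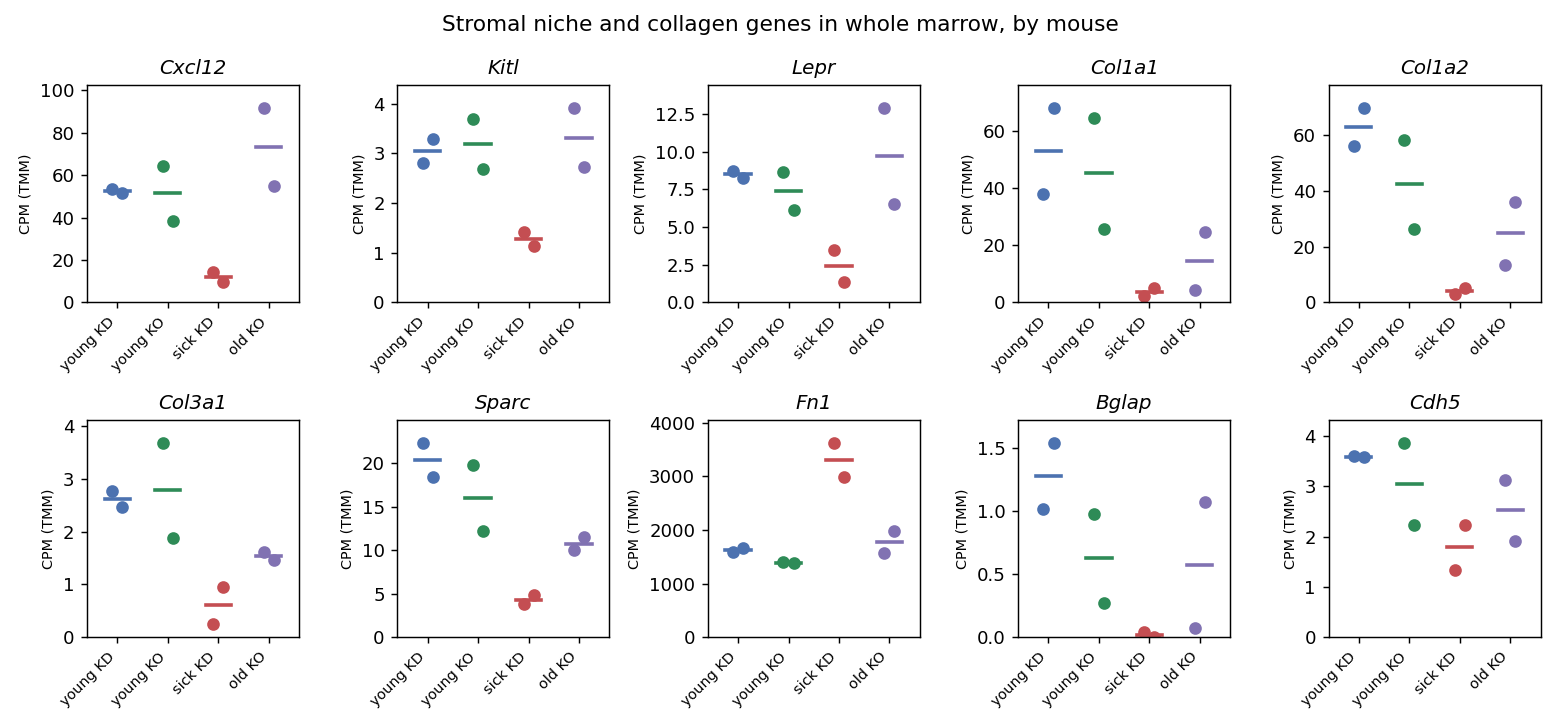
TMM-scaled CPM of each of the 10 genes on a linear axis from 0, with a point for each mouse and a bar at the mean of the 2 mice of a group. Sick KD mice lie below the other groups for 7 genes, such as Cxcl12 at 9.39 and 14.2 CPM against 38.6 to 91.6 CPM in the other 6 mice, and above them for Fn1.

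Among the niche factors, Cxcl12 (ENSMUSG00000061353, chromosome 6, 117168535 to 117181367 on GRCm38) codes for the ligand of Cxcr4. Its level was 53.7 and 51.8 CPM in young KD (2166 and 1717 counts), 64.3 and 38.6 CPM in young KO (2830 and 1266 counts), 14.2 and 9.39 CPM in sick KD (351 and 264 counts) and 91.6 and 54.8 CPM in old KO (2599 and 2145 counts). The young KD mice nearly coincided, the KO mice spread widely in both age groups, and both sick KD mice lay far below every other mouse. The log2 fold change was -2.17 ± 0.20 (SE) from young KD to sick KD (edgeR adjusted p = 0.00414), a 4.51-fold lower level. In old KO it was 2.64 ± 0.29 above sick KD (edgeR adjusted p = 0.00496), a 6.23-fold higher level.

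Kitl (ENSMUSG00000019966, chromosome 10, 100015630 to 100100416), which encodes the ligand of the receptor Kit on stem and progenitor cells, had few counts. It reached 2.80 and 3.29 CPM in young KD (113 and 109 counts), 3.70 and 2.68 CPM in young KO (163 and 88 counts), 1.41 and 1.14 CPM in sick KD (35 and 32 counts) and 3.91 and 2.73 CPM in old KO (111 and 107 counts). Sick KD again held the lowest pair, by a smaller factor than for Cxcl12. Its log2 fold change was -1.26 ± 0.28 from young KD to sick KD (edgeR adjusted p = 0.0269) and 1.38 ± 0.32 from sick KD to old KO (edgeR adjusted p = 0.0287). The first call was lost without sick KD mouse 2 (-1.11, adjusted p = 0.0654) or young KD mouse 2 (-1.16, adjusted p = 0.0701) and the second without sick KD mouse 1 (1.54, 0.0761), sick KD mouse 2 (1.23, 0.0872) or old KO mouse 1 (1.11, 0.0906), all from edgeR.

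The leptin receptor gene Lepr (ENSMUSG00000057722, chromosome 4, 101717404 to 101815352) marks much of the perisinusoidal stroma. It had 8.73 and 8.29 CPM in young KD (352 and 275 counts), 8.68 and 6.15 CPM in young KO (382 and 202 counts), 3.47 and 1.39 CPM in sick KD (86 and 39 counts) and 12.9 and 6.54 CPM in old KO (366 and 256 counts). The 2 sick KD mice differed from each other more than for Cxcl12 or Kitl, yet both stayed below all others. Lepr fell by 1.82 ± 0.40 on the log2 scale from young KD to sick KD (edgeR adjusted p = 0.0269) and was 2.01 ± 0.49 higher in old KO than in sick KD (edgeR adjusted p = 0.0341). Without sick KD mouse 2 the latter was 1.48 (edgeR adjusted p = 0.0689). Counts of Lepr stayed at 0.119 to 0.245 of those of Cxcl12 in all 8 libraries, whereas the Kitl to Cxcl12 ratio was 0.0997 and 0.121 in sick KD and 0.0427 to 0.0695 in the other libraries.

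From young KD to sick KD, the chains of type I collagen had larger negative fold changes than the niche factors, an order that did not hold for the differences between sick KD and old KO. Col1a1 (ENSMUSG00000001506, chromosome 11, 94936224 to 94953042) had 37.9 and 67.9 CPM in young KD (1530 and 2252 counts), 64.6 and 25.8 CPM in young KO (2845 and 846 counts), 2.26 and 4.94 CPM in sick KD (56 and 139 counts) and 4.30 and 24.7 CPM in old KO (122 and 969 counts). Old KO mouse 1, the 158-day-old animal, lay between the 2 sick KD mice, and old KO mouse 2 lay just under the lower young KO mouse. The log2 fold change from young KD to sick KD was -3.87 ± 0.42 (edgeR adjusted p = 0.00519), a 14.6-fold lower level. Between sick KD and old KO it was 2.01 ± 0.76 and did not pass the threshold (edgeR adjusted p = 0.108). This value turned on the old KO mouse used, with 2.79 without mouse 1 (edgeR adjusted p = 5.26e-05) and 0.25 without mouse 2 (edgeR adjusted p = 0.758).

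Its partner chain Col1a2 (ENSMUSG00000029661, chromosome 6, 4504814 to 4541544) followed a like order with a clearer gap. The level was 56.0 and 69.6 CPM in young KD (2260 and 2307 counts), 58.1 and 26.4 CPM in young KO (2556 and 868 counts), 3.11 and 5.26 CPM in sick KD (77 and 148 counts) and 13.6 and 35.8 CPM in old KO (385 and 1403 counts). Here both old KO mice exceeded both sick KD mice. Col1a2 fell by 3.90 ± 0.26 on the log2 scale from young KD to sick KD (edgeR adjusted p = 0.00262) and was 2.56 ± 0.48 higher in old KO than in sick KD (edgeR adjusted p = 0.0163). Without sick KD mouse 1 the second difference was 2.24 (edgeR adjusted p = 0.0669), and without old KO mouse 2 it was 1.69 (edgeR adjusted p = 0.00253). Col1a1 counts were 0.677 to 1.11 of Col1a2 counts in the young mice and 0.317 in old KO mouse 1.

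Col3a1 (ENSMUSG00000026043, chromosome 1, 45311538 to 45349706), the chain of type III collagen found in reticular fibres, was weakly counted. It had 2.78 and 2.47 CPM in young KD (112 and 82 counts), 3.68 and 1.89 CPM in young KO (162 and 62 counts), 0.242 and 0.960 CPM in sick KD (6 and 27 counts) and 1.62 and 1.46 CPM in old KO (46 and 57 counts). The groups of older mice did not overlap, but the 2 sick KD mice were far apart. The fall from young KD to sick KD was -2.10 ± 0.53 (edgeR adjusted p = 0.0381), with -3.42 without sick KD mouse 2 and -1.45 without sick KD mouse 1. The difference of 1.33 ± 0.55 between old KO and sick KD did not pass (edgeR adjusted p = 0.135), though it did without sick KD mouse 2 (2.64, edgeR adjusted p = 0.0267). Of its 50-base windows 1.67% also occur in the overlapping gene model Gm47302.

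Sparc (ENSMUSG00000018593, chromosome 11, 55394500 to 55423183) encodes osteonectin, a collagen-binding protein of bone matrix. Young KD mice had 22.3 and 18.4 CPM (900 and 610 counts), young KO mice 19.8 and 12.2 CPM (873 and 402 counts), sick KD mice 3.80 and 4.84 CPM (94 and 136 counts) and old KO mice 10.04 and 11.5 CPM (285 and 449 counts). Old KO formed a tight group between sick KD and the young mice. Sparc fell by 2.24 ± 0.20 on the log2 scale from young KD to sick KD (edgeR adjusted p = 0.00379) and was 1.32 ± 0.23 higher in old KO than in sick KD (edgeR adjusted p = 0.0127). Both calls held whichever mouse was left out.

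Bglap (ENSMUSG00000074483, chromosome 3, 88383501 to 88384464), which encodes osteocalcin of mature osteoblasts, was close to 0 in the sick KD libraries. Its counts were 41 and 51 in young KD, 43 and 9 in young KO, 1 and 0 in sick KD and 2 and 42 in old KO. The 2 old KO mice were far apart, and mouse 1, which was also the lower of the pair for Col1a1, had the fewer counts. Over both mice, 92 counts in young KD faced 1 count in sick KD, a CPM ratio of 66.2 with an exact 95% interval of 11.6 to 2643 that covers counting error only, and the gene was called lower by edgeR (adjusted p = 0.00759). Against old KO it was too low for the filter and was not tested, with 44 counts against 1 and a CPM ratio of 34.4 (exact 95% interval 5.87 to 1391). Of the 50-base windows of Bglap, 74.7% also occur in its neighbouring copy Bglap2, so the split between the copies is uncertain. Bglap2 had 12 and 22 counts in young KD, 13 and 1 in young KO, 0 and 0 in sick KD and 0 and 8 in old KO, and Bglap3 had at most 1 count in a library.

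Cdh5 (ENSMUSG00000031871, chromosome 8, 104101625 to 104144511), which encodes the VE-cadherin of endothelial junctions, had the smallest difference between young KD and sick KD. It had 3.595 and 3.589 CPM in young KD (145 and 119 counts), 3.86 and 2.22 CPM in young KO (170 and 73 counts), 1.33 and 2.24 CPM in sick KD (33 and 63 counts) and 3.14 and 1.91 CPM in old KO (89 and 75 counts). Sick KD overlapped with old KO and, at its upper mouse, with young KO. The log2 fold change from young KD to sick KD was -1.01 ± 0.31 and did not pass (edgeR adjusted p = 0.0648), and that from sick KD to old KO was 0.49 ± 0.38 (edgeR adjusted p = 0.400). It was called in the first comparison with no filter beyond 1 count (-1.02, edgeR adjusted p = 0.0131), without sick KD mouse 2 (-1.43, edgeR adjusted p = 0.0322) and after trends in GC content and exon length were removed (-0.94, edgeR adjusted p = 0.0489).

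Fn1 (ENSMUSG00000026193, chromosome 1, 71585520 to 71653200) moved against the other members. Fibronectin messenger stood at 1580 and 1655 CPM in young KD, 1403 and 1374 CPM in young KO, 3620 and 2993 CPM in sick KD and 1571 and 1977 CPM in old KO. Both sick KD mice exceeded all 6 others, which lay close together. The log2 fold change was 1.02 ± 0.14 from young KD to sick KD (edgeR adjusted p = 0.00802) and -0.90 ± 0.19 from sick KD to old KO (edgeR adjusted p = 0.0219). The second call was lost without sick KD mouse 1 (-0.75, edgeR adjusted p = 0.0867) or old KO mouse 1 (-0.73, edgeR adjusted p = 0.0710).

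Monocyte messengers moved in part with Fn1. The summed level of 12 monocyte genes was 7134 to 9173 CPM in young KD, 8147 to 9508 CPM in young KO, 10685 to 11051 CPM in sick KD and 9634 to 9749 CPM in old KO, with none of the 12 at 0 in either sick KD library. From young KD to sick KD 3 of the 12 rose and 1 fell by edgeR, beside 9.45% and 11.4% of all tested genes. Ms4a6c rose by 0.82 ± 0.17 and Ly6c2 by 0.52 ± 0.12, while Cx3cr1, a receptor gene of patrolling monocytes, fell by 0.92 ± 0.17 on the log2 scale. Relative to the monocyte receptor gene Ccr2, Fn1 counts were 1.26 to 1.29 in sick KD and 0.554 to 0.861 in the other libraries. Relative to Csf1r, the receptor gene for M-CSF, they were 3.93 to 6.04 in sick KD and 1.82 to 2.57 elsewhere. Relative to F13a1, another gene of the monocyte list, the gap was narrow, with 0.839 to 0.900 in sick KD and 0.458 to 0.795 elsewhere. Fn1 was thus higher in both sick KD mice by each of these ratios as well, by a margin that depended on the monocyte gene. The ratios were not tested, and the part of monocyte number in the Fn1 level was not tested.

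Levels between genes were compared per kilobase of the principal transcript. In young KD the mean level was 194.5 CPM per kilobase for Fn1, 16.8 for Cxcl12, 11.7 for Col1a2, 8.93 for Col1a1, 8.85 for Sparc, 2.90 for Bglap, 2.50 for Lepr, 0.899 for Cdh5, 0.539 for Kitl and 0.472 for Col3a1. Col1a2, Col1a1 and Sparc overlapped with a neighbour in this order between the 2 mice, as did Bglap with Lepr and Kitl with Col3a1. Sick KD kept Fn1 first at 397.6 and Cxcl12 next at 3.76, but Sparc at 1.88 then stood before Col1a2 at 0.783, Lepr at 0.713 and Col1a1 at 0.607, and Bglap was last at 0.0459 CPM per kilobase. The last of these rests on 1 count.

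Old KO mice, of ages that overlap with those of the sick KD mice, had higher levels of the niche factors. Of 9 members tested, 5 were higher (Cxcl12, Kitl, Lepr, Col1a2 and Sparc) and Fn1 was lower than in sick KD at an adjusted p under 0.05 by edgeR, where 18.1% of 14470 tested genes were called, 9.93% higher and 8.22% lower. The groups did not overlap for 7 of the 10 members on the higher side and for 1 on the lower side, beside 32.5% and 33.5% of all tested genes, and 8 of the 9 had an unadjusted p under 0.05, beside 35.8%. Without sick KD mouse 1, only Cxcl12, Lepr and Sparc were called higher and none lower. The median over the 9 members was 1.38, beside 0.00 over all genes. Genotype and disease coincide in this comparison and cannot be told apart.

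The young mice compare the genotypes before disease. By edgeR 0 of the 10 members were called between young KO and young KD, where 0.0404% of 14839 tested genes were called, 0.0202% in each direction, and DESeq2 called 0 as well. With so few genes called in all, this count is the background share and gives no result about the members. The log2 fold changes ran from -0.98 for Bglap to 0.09 for Col3a1, and 1 member, Fn1 (-0.22 ± 0.07), had an unadjusted p under 0.05, beside 2.66% of all tested genes. The groups did not overlap for 2 members, Fn1 and Bglap, both lower in young KO, beside 12.2% of all genes. The spread between the 2 young KO mice was wide, with young KO mouse 2 below mouse 1 for all 10 members, so differences of the size of the Col1a2 value (-0.57 ± 0.34) could not be resolved.

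Age within KO mice gave 0 calls among the 10 members by edgeR and 0 by DESeq2, where edgeR called 0.929% of 14847 genes. Still, the niche factors and the collagens lay on different sides of 0: Cxcl12 was 0.50 ± 0.31, Lepr 0.38 ± 0.35 and Kitl 0.05 ± 0.29, while Col1a1 was -1.62 ± 0.78, Col3a1 -0.87 ± 0.37, Col1a2 -0.77 ± 0.52 and Sparc -0.58 ± 0.24 on the log2 scale. Both old KO mice were below both young KO mice for Col1a1, Col3a1 and Sparc, a share to be read beside the 18.9% of all genes for which this held. At an unadjusted p under 0.05 edgeR found 1 member, Fn1 (0.35 ± 0.14), which was also the only member with both old KO mice above both young KO mice, beside 8.86% and 18.8% of all genes.

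**Figure D2:**
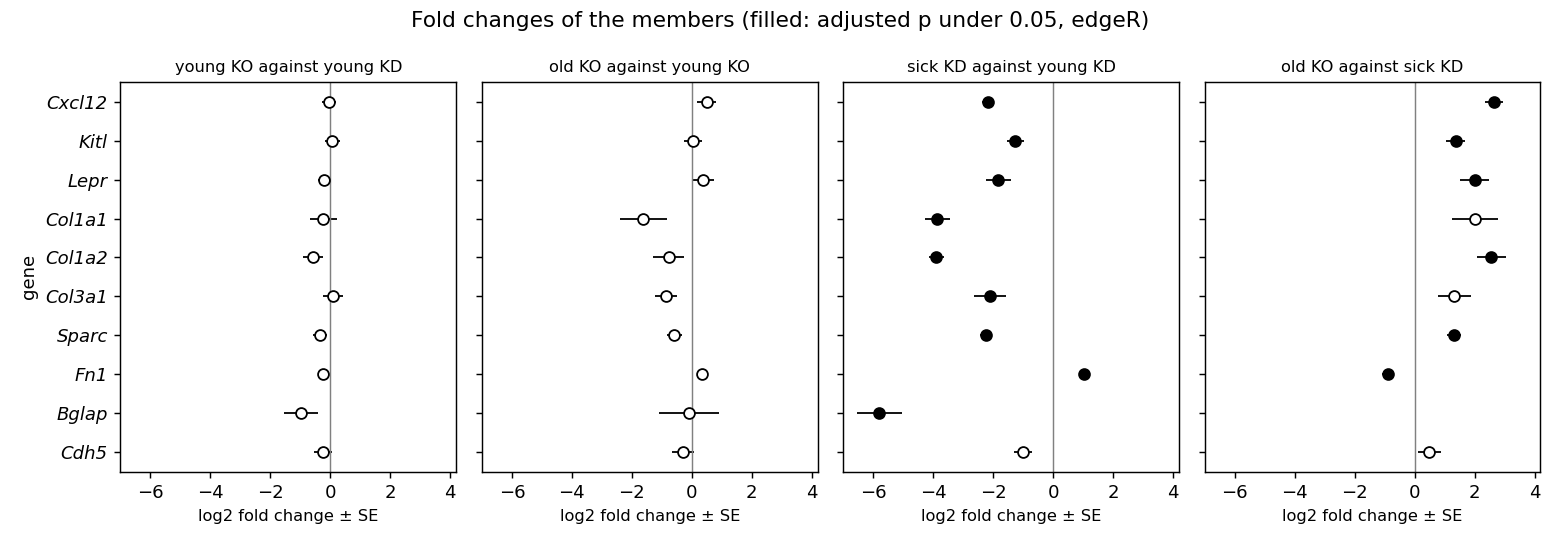
Log2 fold change with its standard error (SE, bars) for each gene in 4 comparisons of 2 mice against 2, where filled points passed an adjusted p of 0.05 by edgeR and open points did not. In sick KD against young KD 8 points lie left of 0 and are filled, with Fn1 filled on the right, and no point is filled in the 2 comparisons on the left.

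Counts relative to Cxcl12 within a library do not depend on library size or on the scaling. The ratio of Col1a1 to Cxcl12 counts was 0.706 and 1.31 in young KD, 1.01 and 0.668 in young KO, 0.160 and 0.527 in sick KD and 0.0469 and 0.452 in old KO. All 4 young mice, of both genotypes, thus had a higher ratio than all 4 old or sick mice. The same order held for Col1a2 to Cxcl12, with 0.686 to 1.34 in the young and 0.148 to 0.654 in the old or sick mice, but not for Sparc, with 0.308 to 0.416 against 0.110 to 0.515. These ratios were chosen after the values were seen and were not tested.

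**Figure D3:**
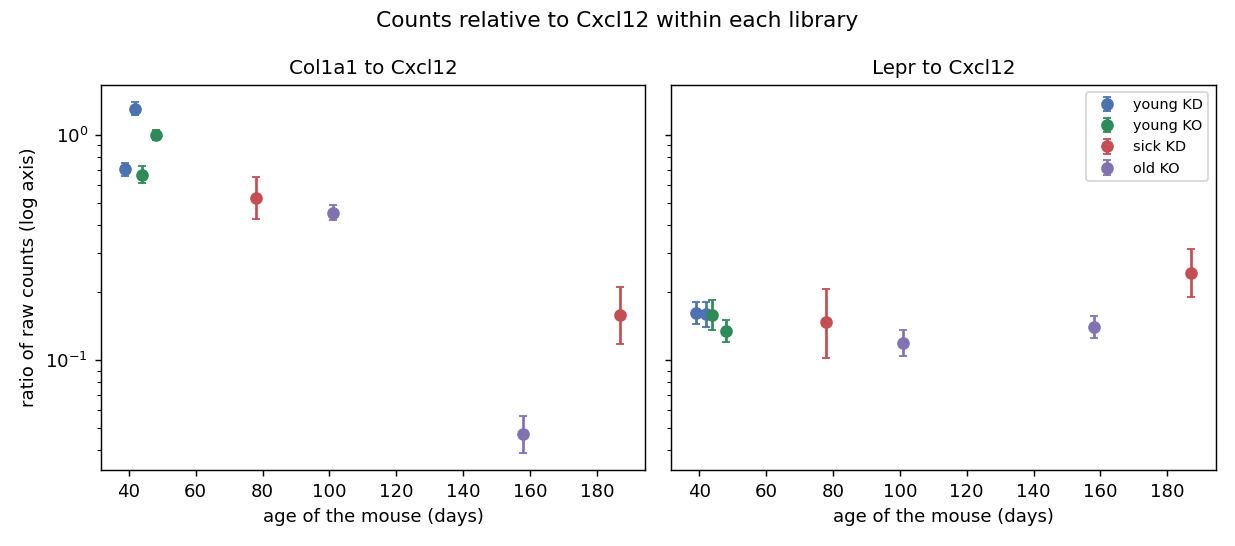
Ratio of raw counts to Cxcl12 on a log axis against the age of the mouse in days, for Col1a1 (left) and Lepr (right), with exact 95% intervals for counting error. Col1a1 relative to Cxcl12 is 0.668 to 1.31 in the 4 young mice and 0.0469 to 0.527 in the 4 older ones, whereas Lepr stays between 0.119 and 0.245.

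Whether the KO-to-KD difference itself changed was tested on all 8 mice. It was more positive among old or sick mice than among young mice for 3 of the 10 members by edgeR, where 7.43% of 15102 genes were called, 4.32% in this direction, and 7 members had an unadjusted p under 0.05, beside 27.7% of all genes. They were Cxcl12 (2.67 ± 0.44, adjusted p = 0.0192), Col1a2 (3.13 ± 0.72, adjusted p = 0.0414) and Sparc (1.66 ± 0.34, adjusted p = 0.0329), on the log2 scale and by edgeR. Lepr (2.20 ± 0.61, edgeR adjusted p = 0.0662), Kitl (1.30 ± 0.40, edgeR adjusted p = 0.0821) and Fn1 (-0.68 ± 0.20, edgeR adjusted p = 0.0722) did not pass. Leaving out single mice left 0 to 2 higher calls, with 0 without young KO mouse 2 or young KD mouse 1 and 1 without sick KD mouse 1 or old KO mouse 2.

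Other genes of the stroma were read from lists chosen with earlier results of these data known. Of 17 further mesenchymal genes tested, 8 fell and 1 rose in sick KD against young KD (edgeR), with a median log2 fold change of -1.56, beside 11.4% of all tested genes lower and 9.45% higher, the shares against which the lists below are read too. Their summed level went the other way, with 1006 to 1188 CPM in young KD, 1109 to 1276 CPM in young KO, 1433 to 1471 CPM in sick KD and 1205 to 1213 CPM in old KO, of which Hp alone made up 830.8 and 986.4 CPM in young KD and 1315 and 1369 CPM in sick KD. Igfbp5, which encodes a binding protein of insulin-like growth factors, fell by 2.21 ± 0.19, from 30.6 and 31.2 CPM to 7.87 and 5.55 CPM. Adipoq, the adiponectin gene that Lepr+ stroma expresses, fell by 3.21 ± 0.30 with 181 and 152 counts against 10 and 16, and Esm1 fell by 3.02 ± 0.35. The gene that rose was Hp (0.56 ± 0.13), which encodes haptoglobin and which neutrophils also make. Against sick KD, 6 of 16 were higher in old KO and 0 lower, beside 9.93% and 8.22% of all tested genes. The lists below are read against these shares too where old KO is compared with sick KD. Among the 6 were Igfbp5 (2.41 ± 0.26), Gas6 (2.55 ± 0.34), a ligand of TAM receptors, and Vcam1 (1.46 ± 0.18), an adhesion molecule that is also on the list of macrophage genes.

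Of 24 further matrix genes tested, 17 fell and 0 rose from young KD to sick KD (edgeR), with a median of -1.63, and their summed level was 87.1 to 94.0 CPM in young KD and 28.1 to 32.7 CPM in sick KD. The glycoprotein gene Tnc went from 12.4 and 13.4 CPM to 2.54 and 2.45 CPM (-2.37 ± 0.19), Col5a2 fell by 3.21 ± 0.29 and Col11a1, both minor fibrillar collagens, had 105 and 103 counts in young KD against 1 and 5 in sick KD. In old KO 13 of 25 were higher than in sick KD and 0 lower, including Tnc (2.24 ± 0.22), Col14a1 (3.79 ± 0.41) and Col6a1 (2.50 ± 0.35). Of 23 genes that process collagen, 6 fell and 1 rose in sick KD, beside 11.4% and 9.45% of all tested genes, with a median of -0.46 and summed levels of 1945 to 2039 CPM in young KD and 2143 to 2230 CPM in sick KD. The collagen chaperone gene Serpinh1 fell by 1.60 ± 0.25 and the procollagen N-proteinase gene Adamts2 by 1.75 ± 0.32, while Adamts3, another proteinase of this family, rose by 1.01 ± 0.18.

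In the osteoblast list 5 of 11 tested genes fell and 0 rose (median -1.64), led by Ibsp (bone sialoprotein, -2.64 ± 0.28), Smpd3 (-3.52 ± 0.52) and Alpl (alkaline phosphatase, -3.06 ± 0.49). Of the 20 listed, 7 and 5 had no count in the sick KD libraries, beside 2 and 4 in young KD. In young KO 4 and 4 had none, and in old KO 4 and 3. The sum over the osteoblast list differed little, with 39.8 to 40.9 CPM in young KD and 37.0 to 39.1 CPM in sick KD. Against sick KD, Ibsp (2.96 ± 0.35) and Tnfsf11 (RANK ligand, 2.72 ± 0.73) were the 2 of 8 called higher in old KO. In the endothelial list 2 of 18 genes fell from young KD to sick KD (median -0.54), a share near the 11.4% of all tested genes, the VEGF receptor gene Kdr by 1.30 ± 0.25 and the sinusoidal scavenger receptor gene Stab2 by 0.86 ± 0.18. Between old KO and sick KD, 0 of 16 endothelial genes were called by edgeR and 0 by DESeq2, where edgeR called 18.1% of all tested genes. An unadjusted edgeR p under 0.05 was found for 2 of the 16, beside 35.8% of all tested genes.

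**Figure D4:**
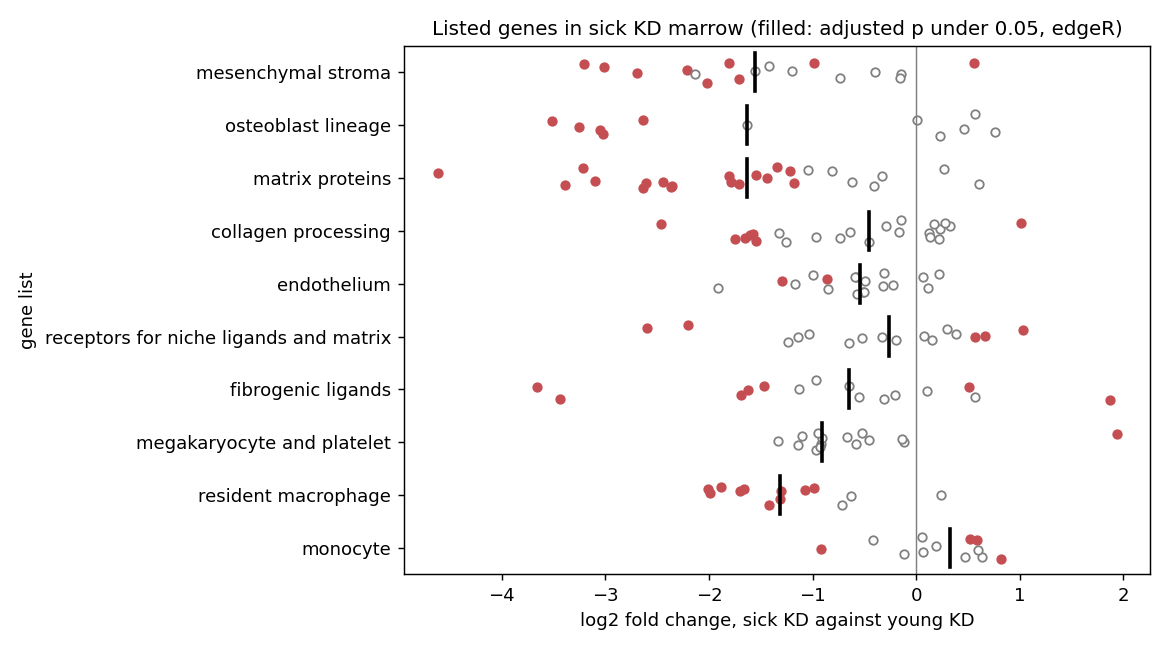
Log2 fold change from young KD to sick KD for each tested gene of 10 lists, with filled points past an adjusted p of 0.05 by edgeR, open points not, and a black bar at the median of each list. The mesenchymal, osteoblast and matrix lists have medians of -1.56, -1.64 and -1.63, and the collagen processing and endothelial lists have -0.46 and -0.54.

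On the receiving side, few genes for receptors of niche ligands and matrix were called, in both directions. Of 16 tested, 3 rose and 2 fell from young KD to sick KD (edgeR), with a median of -0.26. Over all tested genes 9.45% rose and 11.4% fell, so the share of receptor genes that fell was near the background. Lair1, an inhibitory collagen receptor of leukocytes, went from 44.1 and 48.0 CPM to 88.0 and 101.2 CPM (1.03 ± 0.12) and was 1.01 ± 0.14 lower in old KO than in sick KD on the log2 scale. The integrin gene Itga9 fell by 2.60 ± 0.21 and the collagen receptor gene Ddr2 by 2.20 ± 0.44. The receptors of the 2 main niche factors were not called, Cxcr4 with -0.20 ± 0.17 and Kit with 0.15 ± 0.14. Against sick KD, 4 of 16 were higher in old KO and 1 lower, with Ddr2 at 2.26 ± 0.36 and Ddr1 at 1.39 ± 0.30.

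Ligands known to drive fibrosis moved in both directions, with 2 of 15 higher and 5 lower in sick KD than in young KD. Tnf, the gene of the inflammatory cytokine, rose by 1.87 ± 0.21, and Tgfb1 rose by 0.51 ± 0.12. Tgfb3 went from 40 and 33 counts to 1 and 3 counts, and Tgfb2 from 19 and 14 counts to 1 and 1. Against sick KD, old KO had lower Tnf (-1.82 ± 0.20) and higher Tgfb3 (24 and 27 counts) and Pdgfb (1.54 ± 0.34), with 3 of 14 higher and 2 lower. Of 15 megakaryocyte and platelet genes, 1 rose in sick KD against young KD by edgeR, the P-selectin gene Selp (1.93 ± 0.23), and 0 fell. Over all tested genes 9.45% rose and 11.4% fell. The median of the list was -0.91, but its summed level overlapped between the groups and spread widely within them. It was 162 and 429 CPM in young KD and 282 and 159 CPM in sick KD.

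Messengers of other marrow cells moved with the stromal ones, and their part in the results was not tested. Of 13 resident macrophage genes tested, 10 fell and 0 rose from young KD to sick KD (median -1.31) and 11 were higher in old KO than in sick KD (median 2.13), with C1qa at -1.99 ± 0.20 and 2.94 ± 0.21, Mrc1 at -1.42 ± 0.13 and 2.15 ± 0.17, and Axl at -1.30 ± 0.16 and 1.94 ± 0.15. Their summed level was 326.6 to 391.5 CPM in young KD, 404.9 to 439.1 CPM in young KO, 243.6 to 288.6 CPM in sick KD and 482.4 to 586.7 CPM in old KO. Of the 14 listed, 1 had no count in each sick KD library, in young KD mouse 2 and in old KO mouse 1. Of 15 marrow blood cell genes, 6 fell and 2 rose from young KD to sick KD (edgeR), beside 11.4% and 9.45% of all tested genes. In old KO 4 of 14 were higher and 3 lower than in sick KD, beside 9.93% and 8.22%. The erythroid genes Hbb-bs (-1.73 ± 0.46), Hba-a1 (-1.76 ± 0.49) and Alas2 (-1.84 ± 0.46) fell in sick KD. They were higher in old KO than in sick KD, by 2.22 ± 0.28, 2.11 ± 0.28 and 2.41 ± 0.32. The B-cell gene Cd79a fell by 3.85 ± 0.44 on the log2 scale in sick KD. The pan-leukocyte gene Ptprc, by contrast, had 939.9 and 1126 CPM in young KD and 1294 and 935.4 CPM in sick KD.

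Tissue attached to bone could also carry collagen messengers. Cartilage genes summed to 12.7 to 13.1 CPM in young KD, 12.2 to 13.005 CPM in young KO, 6.78 to 8.54 CPM in sick KD and 11.4 to 11.6 CPM in old KO. Of 4 tested, 2 fell in sick KD against young KD, Col2a1 by 2.66 ± 0.56 and Col11a2 by 0.70 ± 0.19. Of the 12 listed, 4 and 5 had no count in the sick KD libraries. This number was similar elsewhere, with 3 and 4 in young KD, 2 and 6 in young KO and 4 and 6 in old KO. Skeletal muscle genes summed to 9.35 to 10.2 CPM in young KD and 7.35 to 9.53 CPM in sick KD, with 1 of 6 lower (Mylpf, -1.46 ± 0.27), and osteoclast genes to 159.9 to 216.7 CPM and 132.9 to 166.2 CPM, with 1 of 7 lower (Acp5, -1.35 ± 0.22). Among adipocyte genes 1 of 2 tested fell, which was Adipoq, and Lep and Adrb3 had no count in any library. Their part in the collagen levels was not tested.

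Across the 8 libraries the members other than Fn1 correlated positively with each other. Pearson's r of log2(CPM + 1) was 0.98 between Cxcl12 and Kitl and 0.97 between Cxcl12 and Lepr, and 0.96 between Col1a1 and Col1a2, but 0.55 between Cxcl12 and Col1a1. Other pairs of a niche factor with a matrix gene lay higher, such as Cxcl12 with Col1a2 at 0.75 and Kitl with Sparc at 0.81, above Col3a1 with Bglap at 0.71. Fn1 was negative with every other member, from -0.89 with Col3a1 to -0.53 with Bglap. These values describe 8 libraries that fall into few groups and share the same scaling, and carry no test. Among 12930 protein-coding genes, the pattern most like that of Cxcl12 was Igfbp5 (r = 0.994), followed by Mfsd2b, Grap2, Gas6 and Esm1. Col1a1 was most like Col11a1 (r = 0.985), followed by Inip, Gpr171, Ttc26 and Ypel1. Cdh5 was most like Fgfr1 (r = 0.989), Col4a1 (r = 0.971) and Col4a2 (r = 0.967), and Fn1 was most like Lrmda (r = 0.990). Of these genes, Mfsd2b, Grap2, Inip, Gpr171, Ttc26, Ypel1, Fgfr1 and Lrmda were on none of the lists.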

How the data were processed

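RNA-Seq was done on total bone marrow of 8 mice. The authors prepared stranded mRNA libraries, aligned reads to mm10 with TopHat2 2.0.10 and deposited raw HTSeq counts per Ensembl gene. The strand setting of the counting is not given in the sources used here. GENCODE M21 (GRCm38) gave symbols and positions, and 40340 of 41214 identifiers had a symbol. The 5 tallies of unassigned reads were kept out of library sizes.

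Counts were fitted with edgeR 4.0.16 in R 4.3.3 (TMM factors, filterByExpr by group, quasi-likelihood test), each comparison on its own 4 mice and the interaction of genotype with state on all 8, with Benjamini-Hochberg adjustment over all tested genes and a threshold of 0.05. Standard errors were derived from the F statistic. On simulated counts with 200 genes changed 4-fold, 99.5% were recovered for sick KD against young KD, and 14 of 213 calls were false. The changed genes were drawn above a CPM limit, and all genes had the same fixed spread. The share recovered is thus a check of the code and not the power for members with few counts. Alternatives were DESeq2 1.42.0, its size factors, no filter, removal of GC content and exon length trends, a fit on all mice and leaving out each mouse. Intervals of count ratios are exact at 95%. Libraries of a group differed beyond counting noise.

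The members and lists were chosen with earlier results of these data known. Named genes were all members and, per list and comparison, up to 3 with the lowest adjusted p, or the 2 most abundant where none passed. The text leaves out part of these genes, from several lists that include those of blood, monocyte and muscle cells, a choice made after their values were seen. Further genes (Hp, Tgfb1, Cxcr4, Kit and genes without counts) were named after their values were seen. Shared sequence was judged on exact 50-base windows of the principal transcript. Correlations used a pseudocount of 1 CPM.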

Additional observations from a re-analysis of the deposited data

Results flagged for a closer look

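By edgeR's interaction test on all 8 mice, 3 members differed more between KO and KD in the old or sick animals than in young ones. On the log2 scale the change was 2.67 for Cxcl12, 3.13 for Col1a2 and 1.66 for Sparc. The KO-to-KD difference in young mice was -0.04 ± 0.22, -0.57 ± 0.34 and -0.35 ± 0.23, and that between old KO and sick KD was 2.64 ± 0.29, 2.56 ± 0.48 and 1.32 ± 0.23 (SE, n = 2 mice per group) for these genes in turn. Groups of 2 mice are too small for a search for single outlying animals.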

How the results depend on the processing

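Member fold changes were recomputed for old KO against sick KD and sick KD against young KD, and none changed direction there. For the other comparisons only the counts of calls were recomputed. Of the 172 recomputed values, 156 kept their side of the threshold, 9 lost the call and 7 gained it. With no filter beyond 1 count, members called lower in young KO than in young KD numbered 1, those higher in old KO than in sick KD 8, those lower in old KO than in young KO 2, and those with a more positive or more negative KO-to-KD difference in old or sick mice 7 and 1. DESeq2's Wald test gave 1 member with a more negative difference there. Leaving out each mouse in turn gave 3 to 6 members higher and 0 to 1 lower in old KO than in sick KD, with 3 higher without sick KD mouse 1 and 0 lower without sick KD mouse 1 or old KO mouse 1. For the interaction it gave 0 to 2 higher and 0 to 1 lower. From young KD to sick KD it gave 7 to 8 lower and 1 higher. The cause of these shifts was not tested. Genes called in all moved by over 1.5 times as follows. Between old KO and sick KD they numbered 1437 higher and 1189 lower, but 2476 and 1849 with no filter, 2204 and 1996 in the fit on all mice, 674 and 547 without sick KD mouse 1, and 739 and 790 lower without old KO mouse 1 or 2. From young KD to sick KD they numbered 1385 higher and 1678 lower, but 455 and 861 without young KD mouse 1 and 907 higher without young KD mouse 2. The interaction gave 653 higher and 469 lower, but 1151 and 800 with DESeq2, 1777 and 1142 with no filter, 1027 and 770 with trends removed, and 53 to 435 higher without single mice. Young KO against young KD gave 3 in each direction, but 15 higher and 11 lower with DESeq2 and 55 and 64 with no filter. Old KO against young KO gave 48 higher and 90 lower, but 170 and 213 with DESeq2, 414 and 382 with no filter, and 7 and 10 without young KO mouse 2. Low counts limit Bglap, Col3a1 and Kitl. No paired analysis was possible because the labels number each mouse individually and the groups share no replicate number.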
